A study of Mus musculus with 9 samples.

Results

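The transcripts described here encode 9 nuclear proteins that set the developmental and resting state of T cells: the TCF/LEF factors Tcf7 and Lef1, the chromatin organiser Satb1, the MYB factor Myb, the HMG-box protein Tox, the E proteins Tcf3 and Tcf12, and the Id proteins Id2 and Id3. They were taken by symbol from the 13698 genes of the table, and all 9 had a row. RNA was sequenced from regulatory T (Treg) cells sorted from spleen and lymph node of female mice on a C56Bl6/129 mixed background, in 3 libraries per group. The deficient cells were YFP+ and MHCII- and came from mice with floxed Thpok (Zbtb7b) and LRF (Zbtb7a) alleles on both chromosomes and a Foxp3 allele that makes YFP and Cre on 1 X chromosome (Foxp3 Cre-YFP/X). The genetic controls were YFP+ and MHCII- cells of other Foxp3 Cre-YFP/X mice whose Thpok and LRF alleles were wild type. The animal controls were YFP-, MHCII- and CD25hi cells of the same 3 mice as the deficient cells, which used the unmodified Foxp3 allele. Deletion was thus driven from Foxp3 in cells that had already made that factor, and both controls kept Thpok and LRF. The sources used here do not give the ages of the mice.

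TCF1, the product of Tcf7, and LEF1 bind DNA through the same kind of HMG box, can recruit beta-catenin or the Groucho/TLE corepressors, and are high in naive and central memory T cells. The E proteins E2A, encoded by Tcf3, and HEB, encoded by Tcf12, bind E boxes as dimers. Id2 and Id3 lack a DNA-binding region and hold E proteins in inactive pairs, and in Treg cells Id2 and Id3 are known to maintain the lineage. SATB1, MYB and TOX act from the thymus onward, in mouse T cell development and, for SATB1 and MYB, in Treg cells.

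Levels are given in CPM (read counts scaled to a common library total) as deposited by the authors, after a normalization that gave all libraries nearly the same distribution; read depth is unknown. Differences are log2 fold changes ± SE with 95% intervals and Benjamini-Hochberg adjusted p-values over all 13698 genes from limma, with a threshold of 0.05. As a check of the labels, Zbtb7b averaged 0.26 ± 0.11 CPM in deficient cells, 115 ± 30.3 CPM in genetic controls and 93.7 ± 15.0 CPM in animal controls (SD, n = 3 each), whereas Zbtb7a averaged 89.5 ± 12.6, 90.3 ± 21.0 and 112 ± 19.3 CPM in the same order of groups, so the per-gene value does not test its deletion. All 11 Treg cell markers had a row, with sums of 4373 to 4994 CPM in deficient cells, 4427 to 5658 CPM in genetic controls and 6757 to 6895 CPM in animal controls. Of the 11, 1 rose and 2 fell against genetic controls (Cd3e 0.47, limma adjusted p = 0.0398, with Tnfrsf4 -1.09, 0.0256, and Cd4). Of all genes, 0.336% rose and 0.533% fell there. Against animal controls 0 of the 11 rose and 4 fell, beside 0.307% and 0.584% of all genes. These were Tnfrsf4 (-1.19, 0.0136), Foxp3, Cd4 and Il2ra (-0.71, 0.0497), the gene of the CD25 that animal controls were gated on. Foxp3 itself lay between 26.5 and 35.9 CPM in deficient cells, between 24.8 and 38.1 CPM in genetic controls and between 754 and 999.7 CPM in animal controls. Genetic control 8619 and deficient library 232614 held the most erythroid marker signal (76.1 and 40.8 summed CPM, at most 1.13 CPM in the other libraries), and genetic control 8619 the most myeloid signal (485 summed CPM, against 96.7 to 173 CPM). Fewer expressing cells and less RNA per cell cannot be told apart in such bulk libraries.

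None of the 9 transcripts passed the test between any of the groups. Against genetic controls, 0 of 9 were called by limma at an adjusted p under 0.05, beside 0.869% of all genes (0.336% higher and 0.533% lower), and 3 of 9 had an unadjusted p under 0.05, beside 10.6% of all genes. Against animal controls, 0 of 9 were called, beside 0.891% of all genes (0.307% higher and 0.584% lower), and again 3 of 9 had an unadjusted p under 0.05, beside 11.9%. Between genetic and animal controls, 0 of 9 were called, beside 0.0365%, and 1 of 9 had an unadjusted p under 0.05, beside 6.62%. The groups did not overlap for 2 of 9 against genetic controls, beside 15.7% of all genes, for 4 of 9 against animal controls, beside 15.9%, and for 1 of 9 between the controls, beside 10.4%. Without the trend of variance on level, limma also called 0 of 9 in each comparison. The 3 transcripts with an unadjusted p under 0.05 against both controls were Satb1, which was higher in deficient cells, and Tcf7 and Id2, which were lower (an unadjusted p with a lower level was found for 5.66% and 6.34% of all genes against genetic and animal controls). These counts varied with the fit. Against genetic controls 1 of 9 had an unadjusted p under 0.05 without the variance trend (Id2), and 1 of 9 without genetic control 124, genetic control 8619 or deficient library 232614 (Tcf7 each time). Against animal controls 2 of 9 did without the trend. There Tcf7 had passed narrowly in the fit with it (limma, unadjusted p = 0.0495). Both comparisons use the same deficient libraries and are not independent of each other. The median log2 fold change of the 9 was 0.08 against genetic controls and 0.04 against animal controls, where all genes had medians of 0.036 and 0.037.

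**Figure D1:**
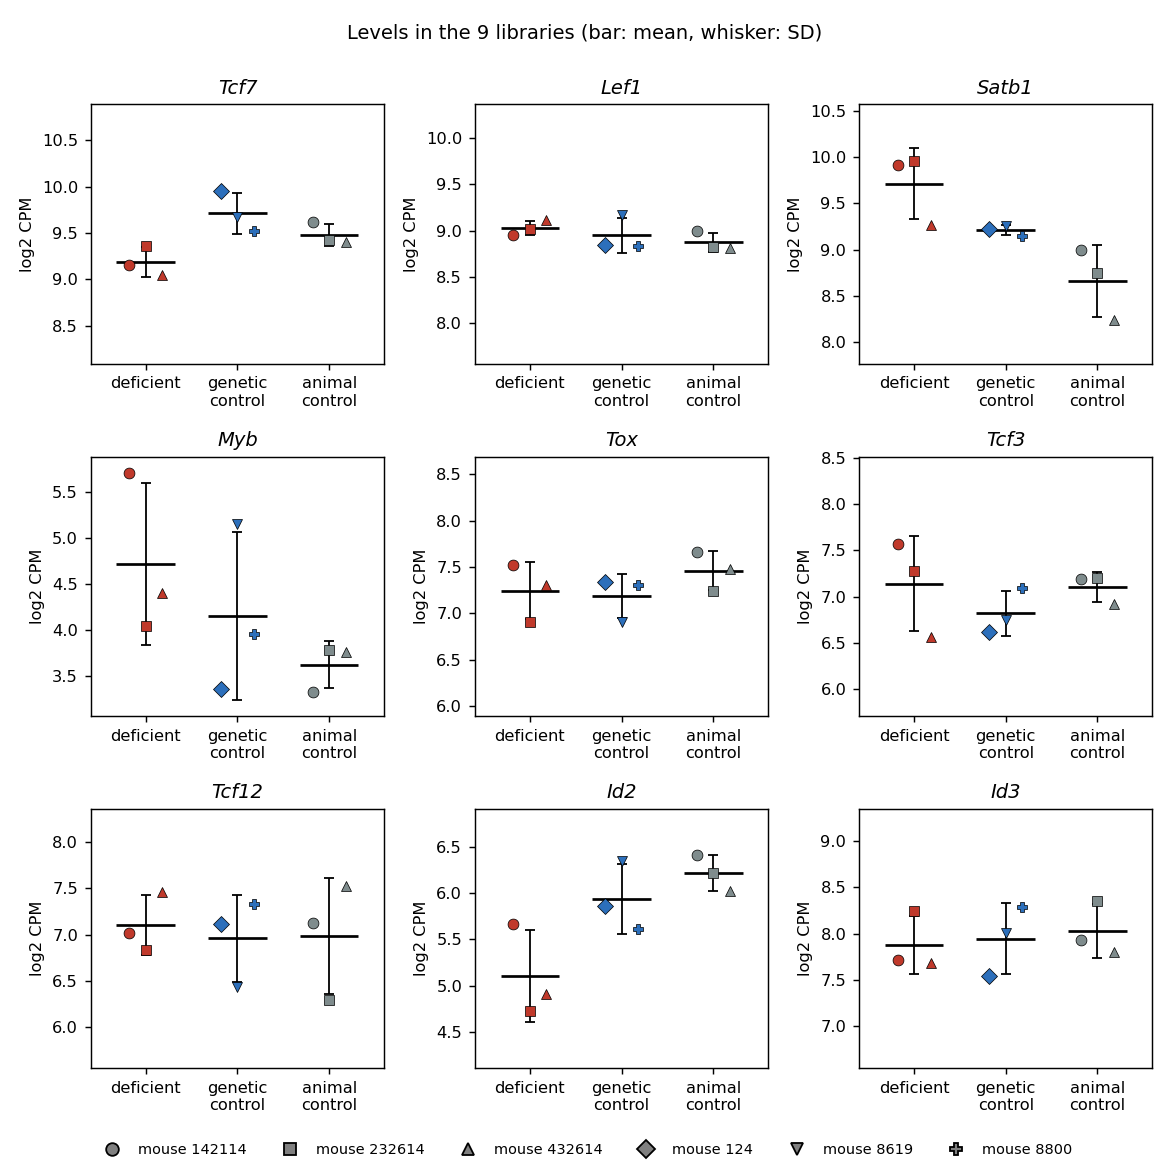
Log2 CPM (vertical axis) of each of the 9 transcripts in the 3 libraries of deficient cells, genetic controls and animal controls; each marker shape is a mouse, bars are group means and whiskers the SD. All panels span the same number of log2 units from different starting points. Tcf7 lies lower in the 3 deficient libraries than in all 6 controls, Satb1 lies higher than in all 6, and Myb scatters most within deficient cells and genetic controls (SD 0.88 and 0.92).

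Of the TCF/LEF transcripts, Tcf7 lay lower in every deficient library than in the controls, whereas Lef1 overlapped between groups. Tcf7 (chromosome 11, 52252371 to 52283014, GRCm38, minus strand) encodes TCF1, which T cell precursors need and resting T cells keep. It measured 569, 657 and 532 CPM in deficient libraries 142114, 232614 and 432614. The genetic controls 124, 8619 and 8800 measured 988, 815 and 732 CPM. The animal controls 142114, 232614 and 432614 measured 785, 689 and 676 CPM. Every deficient library thus lay below all 6 control libraries, as 3.33% of all genes did (7.28% lay below the genetic controls alone). Its log2 fold change was -0.52 ± 0.13 against genetic controls (95% interval -0.82 to -0.23, limma adjusted p = 0.131) and -0.29 ± 0.13 against animal controls (-0.59 to -0.00072, adjusted p = 0.418), so neither difference passed. Within the 3 mice, deficient minus animal control values were -0.46, -0.07 and -0.35 on the log2 scale, lower in 3 of 3 but by little in mouse 232614. Genetic and animal controls overlapped (0.23 ± 0.13, adjusted p = 0.805). Genetic control 124 had the highest value, and without it the difference from genetic controls was -0.40 (adjusted p = 0.259).

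Lef1 (chromosome 3, 131110471 to 131224356, plus strand) encodes LEF1, which shares many target genes with TCF1 in T cells. Its level was 494, 520 and 552 CPM in deficient cells, 457, 576 and 456 CPM in genetic controls and 508, 451 and 449 CPM in animal controls, and all groups overlapped. Lef1 had a log2 fold change of 0.08 ± 0.12 against genetic controls (95% interval -0.19 to 0.35, limma adjusted p = 0.878) and of 0.15 ± 0.12 against animal controls (-0.12 to 0.43, adjusted p = 0.702). These are the narrowest intervals among the 9 transcripts.

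The log2 ratio of Lef1 to Tcf7 within a library takes out what raises or lowers both alike. It averaged -0.16 ± 0.20 in deficient cells, -0.76 ± 0.31 in genetic controls and -0.61 ± 0.02 in animal controls (SD, n = 3 each). The 3 deficient values, -0.20, -0.34 and 0.06, lay above all 6 control values, of which the highest was -0.50. The difference was 0.60 against genetic and 0.45 against animal controls, each with a two-sided exact permutation p = 0.1, the smallest that 3 against 3 libraries allow, and 0.45 after adjustment over 9 such tests. No test of this size can reach the threshold. Tcf7 alone already lay below all 6 controls while Lef1 overlapped, so the ratio is not independent of the Tcf7 values. How often other pairs of genes separate in this way was not counted.

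**Figure D2:**
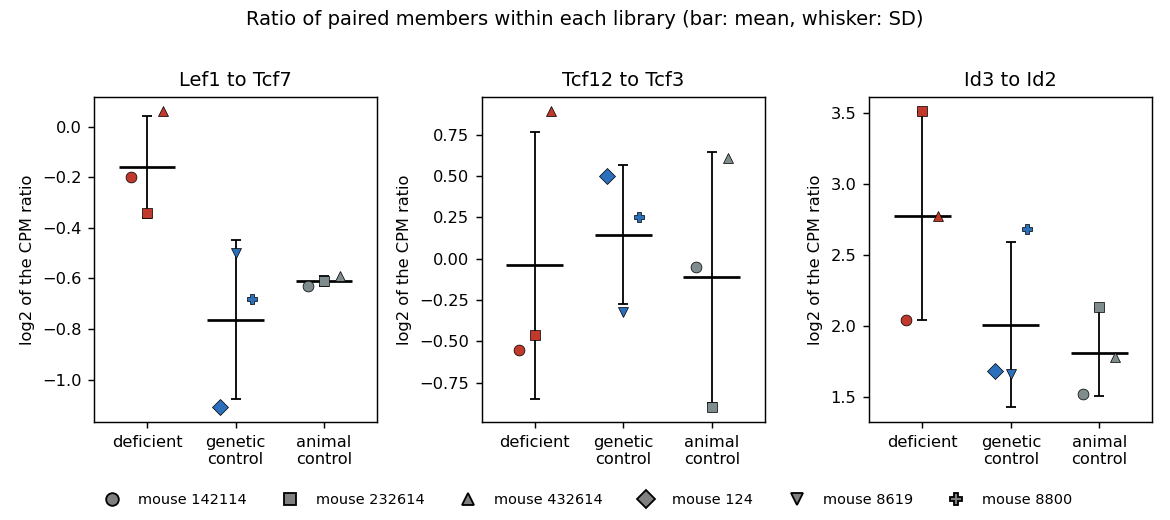
Log2 of the ratio of CPM values of paired transcripts within each library (vertical axis), in deficient cells, genetic controls and animal controls; bars are means and whiskers the SD of 3 libraries. The Lef1 to Tcf7 ratio is higher in each deficient library (-0.34 to 0.06) than in every control, while the other ratios overlap between groups. How often ratios of other genes separate was not counted.

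Satb1 (chromosome 17, 51736187 to 51833290, minus strand) encodes a protein that loops and organises chromatin and is most abundant in thymocytes. It showed the highest levels in deficient cells, at 961, 998 and 616 CPM in libraries 142114, 232614 and 432614. Genetic controls 124, 8619 and 8800 measured 597, 613 and 566 CPM. The animal controls measured 512, 430.4 and 301 CPM in mice 142114, 232614 and 432614. The 3 groups did not overlap with each other, although deficient library 432614 exceeded the nearest genetic control by only a few CPM. Of all genes, 3.47% likewise had every deficient library above all 6 controls, and 8.44% had every one above the genetic controls. Against animal controls the log2 fold change was 1.05 ± 0.22 (95% interval 0.56 to 1.54, limma adjusted p = 0.068), the lowest adjusted p among the 9. Against genetic controls it was 0.50 ± 0.22 (0.02 to 0.99, adjusted p = 0.455). Genetic controls in turn stood 0.55 ± 0.22 above animal controls (0.06 to 1.04, adjusted p = 0.725). These controls did not overlap either, as 4.88% of all genes did with genetic controls higher, and neither difference passed the test.

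Within each mouse Satb1 was higher in deficient cells than in the animal control, by 0.91, 1.21 and 1.03 on the log2 scale. Mouse 432614 had the lowest value in both of its libraries. Without the deficient library of that mouse, the comparison with animal controls passed the threshold (1.27, adjusted p = 0.0299); without any other single library it did not (adjusted p up to 0.188). With mouse as a random term the adjusted p was 0.0507, and with mouse as a fixed term among the 6 libraries 0.17. Markers of immature thymocytes, where Satb1 is high, summed to between 118 and 200.0 CPM in deficient cells, 102 and 117 CPM in genetic controls and 81.7 and 109.7 CPM in animal controls over the 5 of 8 with a row. Of these, Themis followed the order of Satb1, at 93.4 ± 29.5 CPM in deficient cells, 47.9 ± 9.53 CPM in genetic controls and 30.6 ± 17.0 CPM in animal controls (limma adjusted p = 0.54 against genetic and 0.17 against animal controls, unadjusted 0.086 and 0.00506). Dntt averaged 8.0 ± 12.3, 2.32 ± 3.99 and 1.4 ± 0.767 CPM and Cd1d1 46.7 ± 32.2, 55.3 ± 15.2 and 56.0 ± 7.01 CPM in that order of groups. Rag1 lay at the lowest value of the table, 0.00457 CPM, in all deficient and genetic control libraries, and Aqp11 in all deficient ones. The summed markers of naive conventional T cells, which also express Satb1, Tcf7 and Lef1, ranged from 2882 to 3282 CPM in deficient cells, from 3294 to 3369 CPM in genetic controls and from 2703 to 3279.6 CPM in animal controls. The part of either cell type in the Satb1 values was not tested.

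The sequence before gene starts was searched for E boxes and for a TCF/LEF motif. In RefSeq's table of gene starts (GRCm38.p6), 8 of the 9 genes matched, all but Tox, with 18 windows of 250 bases before a start. An E box, CANNTG, which reads the same on both strands, lay in 11 of these windows, where 66.2% of all 32851 windows held one. The TCF/LEF motif CTTTGA, on either strand, lay in 1 of the 18 windows, in Lef1, where 13.8% of all windows held it. Satb1 had 5 windows, of which 2 held an E box. The window before its outermost start, shown because Satb1 was the transcript with the lowest adjusted p, lies at chr17:51833291-51833540 (minus strand), outside the annotated gene, and held no E box or TCF/LEF motif. The only E box in the single Id2 window, of the form CAGCTG found in 13.0% of all windows, is shown with its flanks at chr12:25096271-25096300 (minus strand), with the E box in capitals, because Id2 had the lowest log2 fold changes of the 9 transcripts. That site lies inside the gene as GENCODE annotates it, and the Id3 window held no E box. These matches describe the letters alone.
Satb1 start: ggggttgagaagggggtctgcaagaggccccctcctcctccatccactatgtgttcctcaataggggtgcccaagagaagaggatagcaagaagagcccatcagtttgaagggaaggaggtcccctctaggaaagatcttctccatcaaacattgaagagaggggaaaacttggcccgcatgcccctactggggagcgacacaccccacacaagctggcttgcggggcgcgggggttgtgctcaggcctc
Id2 E box: aatttgccacccCAGCTGggctctcgcccg

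Myb (chromosome 10, 21124935 to 21160984, minus strand) encodes c-MYB, a factor of progenitors and thymocytes that mouse effector Treg cells also need. It was the scarcest of the 9 per exon length, and measured 52.2, 16.5 and 21.1 CPM in deficient cells, 10.2, 35.5 and 15.4 CPM in genetic controls and 9.99, 13.7 and 13.6 CPM in animal controls. Deficient libraries exceeded all animal controls, and 7.85% of all genes did the same. Deficient library 142114 and genetic control 8619 stood well above the rest of their groups. Its log2 fold change was 1.10 ± 0.61 against animal controls (95% interval -0.27 to 2.47, limma adjusted p = 0.529) and 0.57 ± 0.61 against genetic controls (-0.80 to 1.94, adjusted p = 0.818), intervals that include both no difference and a large one.

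Tox (chromosome 4, 6686353 to 6991557, minus strand) encodes an HMG-box protein needed for CD4 T cell development in the thymus and known from exhausted CD8 T cells. It measured 183, 120.2 and 158 CPM in deficient cells, 162, 120.1 and 158 CPM in genetic controls and 203, 152 and 179 CPM in animal controls. All groups overlapped. The log2 fold change was 0.06 ± 0.22 against genetic controls (95% interval -0.42 to 0.54, limma adjusted p = 0.972) and -0.22 ± 0.22 against animal controls (-0.70 to 0.26, adjusted p = 0.771).

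Among the E proteins, Tcf3 (chromosome 10, 80409514 to 80433647, minus strand) encodes E2A, which lymphocyte precursors need. It measured 189.5, 156 and 95.1 CPM in deficient cells, 98.5, 107 and 136 CPM in genetic controls and 146, 147 and 121 CPM in animal controls. The deficient libraries held both the highest and the lowest of the 9 values. Its log2 fold change was 0.32 ± 0.27 against genetic controls (95% interval -0.27 to 0.92, limma adjusted p = 0.745) and 0.04 ± 0.27 against animal controls (-0.56 to 0.63, adjusted p = 0.988).

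Tcf12 (chromosome 9, 71842688 to 72111871, minus strand) encodes HEB, the partner of E2A in thymocytes. It measured 129.6, 114 and 176 CPM in deficient cells, 139, 85.9 and 161 CPM in genetic controls and 141, 78.9 and 185 CPM in animal controls. In mouse 432614 both libraries were high and in mouse 232614 both were low, and the SD within groups was 0.32, 0.48 and 0.63 on the log2 scale in deficient cells, genetic controls and animal controls. Tcf12 had a log2 fold change of 0.14 ± 0.35 against genetic controls (95% interval -0.64 to 0.92, limma adjusted p = 0.948) and of 0.11 ± 0.35 against animal controls (-0.67 to 0.89, adjusted p = 0.96). The log2 ratio of Tcf12 to Tcf3 averaged -0.04 ± 0.80 in deficient cells, 0.14 ± 0.42 in genetic controls and -0.11 ± 0.76 in animal controls, and did not differ detectably (exact permutation p = 0.8 and 1.0 against the controls in that order). Tcf4, the remaining E protein gene, was scarce, at 2.26 ± 2.30 CPM in deficient cells, 4.44 ± 4.87 CPM in genetic controls and 22.4 ± 2.49 CPM in animal controls. Its differences did not pass either (limma adjusted p = 0.82 and 0.19). Tcf4 is also known from B cells and plasmacytoid dendritic cells, and summed B cell markers, 8 of 11 with a row, ranged from 94.5 to 230.3 CPM in deficient cells, from 118 to 227 CPM in genetic controls and from 315 to 371 CPM in animal controls, a part that was not tested.

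Of the Id proteins, Id2 (chromosome 12, 25093799 to 25097140, minus strand) is known from innate lymphoid cells and effector T cells. It measured 51.1, 26.5 and 30.2 CPM in deficient cells, 58.1, 81.3 and 48.7 CPM in genetic controls and 84.9, 74.4 and 64.9 CPM in animal controls. The deficient libraries lay below all animal controls, as 8.10% of all genes did, while deficient library 142114 lay above genetic control 8800. The log2 fold change was -1.11 ± 0.33 against animal controls (95% interval -1.86 to -0.36, limma adjusted p = 0.207) and -0.83 ± 0.33 against genetic controls (-1.58 to -0.09, adjusted p = 0.413). Within mice the log2 differences were -0.73, -1.49 and -1.10, lower in 3 of 3. The value against genetic controls was -0.44 without genetic control 8619 and deficient library 232614, the 2 libraries with the most erythroid signal, and -0.63 without genetic control 8619 alone. Markers of NK and innate lymphoid cells, which express Id2, had 4 of 9 rows, without Ncr1, and summed to between 7.55 and 23.8 CPM in deficient cells, 4.82 and 35.8 CPM in genetic controls and 15.4 and 38.3 CPM in animal controls; their part in the Id2 values was not tested.

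Id3 (chromosome 4, 136143497 to 136145755, plus strand) is the Id gene known to be high in resting and memory precursor T cells. It measured 209.9, 302 and 206 CPM in deficient cells, 187, 258 and 313 CPM in genetic controls and 244, 326 and 223 CPM in animal controls. All groups overlapped, and mouse 232614 was high in both of its libraries. Id3 had a log2 fold change of -0.07 ± 0.24 against genetic controls (95% interval -0.60 to 0.47, limma adjusted p = 0.97) and of -0.15 ± 0.24 against animal controls (-0.68 to 0.39, adjusted p = 0.887). The log2 ratio of Id3 to Id2 averaged 2.77 ± 0.74 in deficient cells, 2.01 ± 0.58 in genetic controls and 1.81 ± 0.31 in animal controls. Its differences of 0.76 and 0.96 had exact permutation p = 0.2 each, and the groups overlapped.

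**Figure D3:**
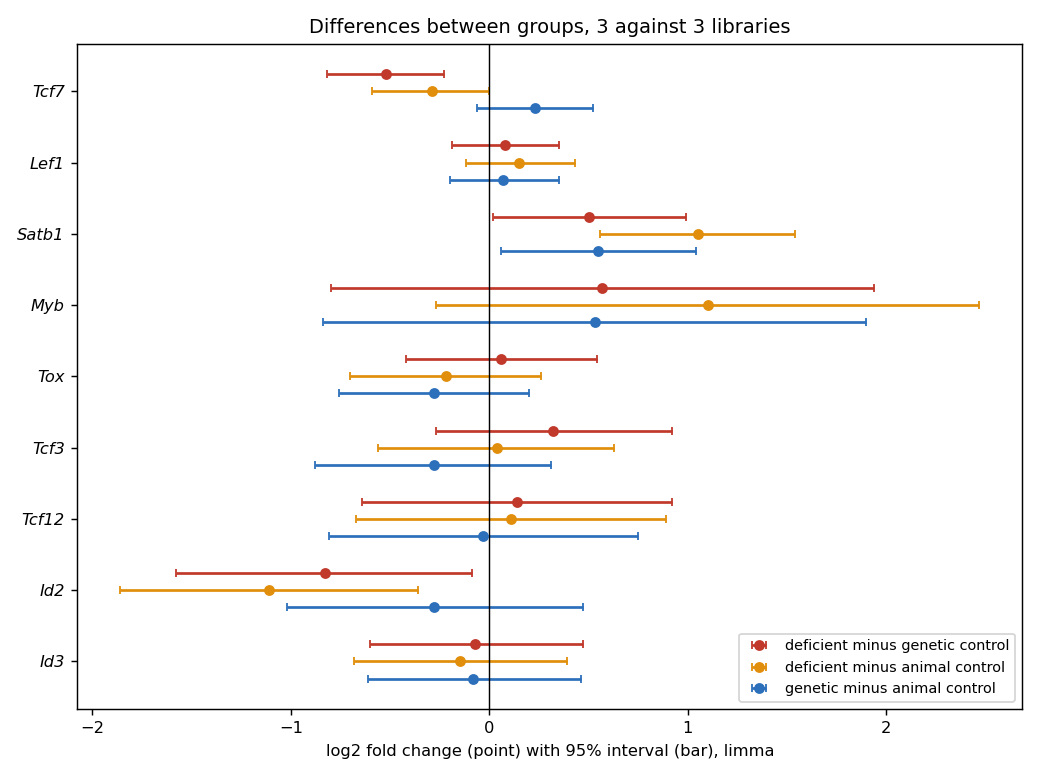
Log2 fold change (horizontal axis; points) with its 95% interval (bars) for each transcript in the 3 comparisons, from limma over all 9 libraries. Intervals that exclude 0 are those of Tcf7, Satb1 and Id2 for both deficient comparisons, by a small margin for Tcf7 against animal controls, and of Satb1 between the controls; none of these passed adjustment over all genes.

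Set side by side within mice, deficient minus animal control values were positive in 3 of 3 mice for 2 transcripts, Satb1 and Myb, and negative in 3 of 3 for 4 transcripts, Tcf7, Tox, Id2 and Id3. For Tox and Id3 these steps were small, with means of -0.22 and -0.15 on the log2 scale. The 3 mice took the same order in deficient cells as in animal controls for 3 of 9 transcripts, namely Tox, Tcf12 and Id3. Neither the shared sign nor the shared order was counted over all genes. These counts thus do not show whether the 9 transcripts differ from other genes. The standard error of the group difference ranged from 0.12 for Lef1 to 0.61 for Myb, around a median of 0.39 over the 7550 genes averaging 10 CPM or more. With mouse as a fixed term, limma called 0 of 13698 genes against animal controls (1395 at an unadjusted p under 0.05). It also called 0 of the 9 members (3 unadjusted). That fit used only the 6 libraries compared, which gave 52 calls without the term, where all 9 libraries gave 122. Its mouse term also leaves fewer values to estimate the spread, so the lost calls do not measure an effect of mouse.

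**Figure D4:**
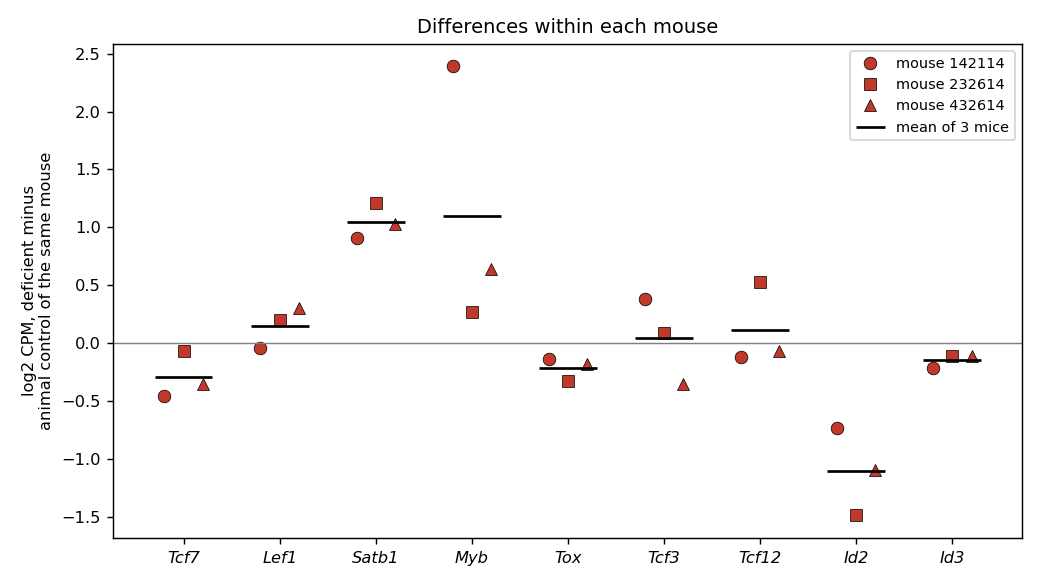
Difference in log2 CPM (vertical axis) between deficient cells and the animal control of the same mouse, for each of 3 mice (markers) with their mean (bars). Satb1 lies between 0.91 and 1.21 in all 3 mice and Id2 between -1.49 and -0.73, while Myb ranges from 0.27 to 2.39.

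Between genes, levels are compared per kilobase of annotated exon, a scale that lowers the value of genes with long or many alternative exons. Tcf7 was the most abundant of the 9 in every group, at 223 ± 24.5 CPM per kilobase in deficient cells, 322 ± 49.6 in genetic controls and 273 ± 22.5 in animal controls. Id3 followed, at 134 ± 30.4, 141 ± 35.3 and 147 ± 30.5 CPM per kilobase in that order of groups, and then Lef1, at 59.4 ± 3.31, 56.5 ± 7.89 and 53.4 ± 3.81. These 3 did not overlap with each other within any group. In deficient cells Satb1, Tcf3, Tox, Id2 and Tcf12 followed at 45.1, 36.4, 20.2, 14.7 and 8.99 CPM per kilobase, each overlapping with the next, and Myb was last at 3.35. In animal controls Satb1 stood below Tox, at 21.8 ± 5.57, and overlapped with it. Among the HLH proteins, Id3 thus exceeded Tcf3 and Tcf12 per length in every group. Values per gene do not separate isoforms, such as the TCF1 forms with and without the beta-catenin binding part.

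The genes that work with these factors were read in 6 lists holding 99 measured genes, of which limma called 2 against genetic controls (2.02%, beside 0.869% of all genes), 3 against animal controls (3.03%, beside 0.891%) and 1 between the controls (1.01%, beside 0.0365%). List medians below are of log2 fold changes, against genetic and then animal controls, where all genes had 0.036 and 0.037. An unadjusted p under 0.05 was found for 10.6% and 11.9% of all genes against genetic and animal controls. Of 28 measured TCF/LEF relatives and beta-catenin pathway genes, 0 rose and 0 fell against either control. Their medians were 0.09 against genetic and 0.20 against animal controls. At an unadjusted p under 0.05, 3 were higher against genetic and 1 against animal controls, and 0 were lower. Among 12 E protein and Id relatives and cofactors, 0 rose and 0 fell, with medians of 0.05 and -0.20. At an unadjusted p under 0.05, 1 was higher against genetic controls, and 2 were higher and 3 lower against animal controls.

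Of 13 genes that need or respond to E proteins in mouse lymphocytes, 0 rose and 1 fell against genetic controls. Against animal controls 0 rose and 2 fell, and the medians were -0.03 and -1.32. At an unadjusted p under 0.05, 1 was higher and 3 lower against genetic controls, beside 10.6% of all genes. Against animal controls 1 was higher and 5 lower, beside 11.9%. Cd4, the co-receptor gene, averaged 355 ± 25.7 CPM in deficient cells, 866 ± 175 CPM in genetic controls and 889 ± 87.7 CPM in animal controls, and fell against both (log2 fold changes -1.27 ± 0.15 and -1.32 ± 0.15, limma adjusted p = 0.00488 and 0.00338). Both calls were lost without the variance trend (adjusted p = 0.116 and 0.0971), that against genetic controls with only their 6 libraries (0.0562), and that against animal controls with mouse as a fixed term (0.16). Foxp3 fell against animal controls (log2 fold change -4.81 ± 0.25, adjusted p = 5.18e-05; 0.0953 with mouse as a fixed term) but genetic controls, which kept both factors, stood as far below them (-4.78 ± 0.25, adjusted p = 5.55e-05).

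Of 25 measured resting state genes, 4 were higher and 3 lower against genetic controls (unadjusted p under 0.05, beside 10.6% of all genes). Against animal controls 7 were higher and 2 lower, beside 11.9%. After adjustment, 0 rose and 1 fell against genetic controls, and 0 rose and 0 fell against animal controls. Medians were 0.05 and 0.08. The member that fell was Slfn2, a Schlafen gene that keeps mouse T cells quiescent. It measured 574, 576 and 578 CPM in deficient cells, 946, 896 and 743 CPM in genetic controls and 611, 582 and 635 CPM in animal controls. Its log2 fold change was -0.57 ± 0.10 against genetic controls (limma adjusted p = 0.0383) and -0.08 ± 0.10 against animal controls (adjusted p = 0.841). The call was lost without any 1 library except genetic control 8800 (adjusted p up to 0.151) and was also lost without the variance trend (0.5), with only the 6 libraries compared (0.116) and without both libraries with erythroid signal (0.28).

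Of 9 measured HMG-box, SATB and MYB relatives, 1 was higher and 2 lower against genetic controls at an unadjusted p under 0.05. Against animal controls 2 were higher and 2 lower. The shares of all genes were 10.6% and 11.9%. After adjustment, 0 rose and 0 fell against genetic controls, and 1 rose and 0 fell against animal controls. Medians were 0.01 and -0.03. The member that rose was Sox4, an HMG-box factor of progenitors and thymocytes. It measured 64.6, 57.8 and 56.1 CPM in deficient cells, 18.1, 17.8 and 28.4 CPM in genetic controls and 11.7, 3.6 and 10.2 CPM in animal controls, without overlap between any groups. Of all genes, 3.47% had every deficient library above all 6 controls. Genetic controls lay above animal controls without overlap for 4.88%. Sox4 had a log2 fold change of 2.97 ± 0.52 against animal controls (limma adjusted p = 0.029) and of 1.5 ± 0.52 against genetic controls (adjusted p = 0.302). The call was lost with mouse as a fixed term (adjusted p = 0.294) and without any 1 of 5 libraries, genetic control 124, the 3 deficient libraries or animal control 432614 (0.0519 to 0.106). It was also lost without the variance trend (0.0567), with only the 6 libraries compared (0.0923) and without both libraries with erythroid signal (0.137). The Sox4 order of the groups was that of Satb1. The thymocyte marker sums given above were highest in deficient cells but overlapped between the controls. Themis and the mean of the widely scattered Dntt followed this order, whereas Cd1d1 ran the other way. Rag1 and Aqp11 lay at the lowest value in all deficient libraries. The part of thymocytes in the Sox4 values was not tested.

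Of 17 factors listed for effector differentiation, 0 rose and 0 fell against either control, with medians of -1.06 and -1.07. An unadjusted p under 0.05 was found for 6 and 8, beside 10.6% and 11.9% of all genes. Of these, 5 and 8 were lower, beside 5.66% and 6.34% of all genes. Other fits called 1 of the 17. Against animal controls it was Maf with log2(CPM + 1) (adjusted p = 0.036), without deficient library 232614 (0.0151) and without both libraries with erythroid signal (0.0369), Tbx21 with mouse as a random term (0.0462), and Batf without deficient library 142114 (0.00983). Against genetic controls it was Batf without deficient library 142114 (0.0138). Batf, an AP-1 factor of effector Treg cells, averaged 12.7 ± 13.7 CPM in deficient cells, 73.7 ± 6.78 CPM in genetic controls and 85.5 ± 22.8 CPM in animal controls (limma adjusted p = 0.0955 and 0.0769). Maf, a factor of cytokine-producing Treg cells, averaged 10.7 ± 7.73, 43.4 ± 8.22 and 94.8 ± 25.8 CPM in that order of groups (adjusted p = 0.215 and 0.0623). Tbx21 was scarce throughout, at 0.0235 ± 0.0327, 3.01 ± 3.18 and 6.74 ± 3.33 CPM. Deficient libraries 142114 and 232614 lay at the lowest value of the table, 0.00457 CPM, so the size of its fold changes depends on that value.

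**Figure D5:**
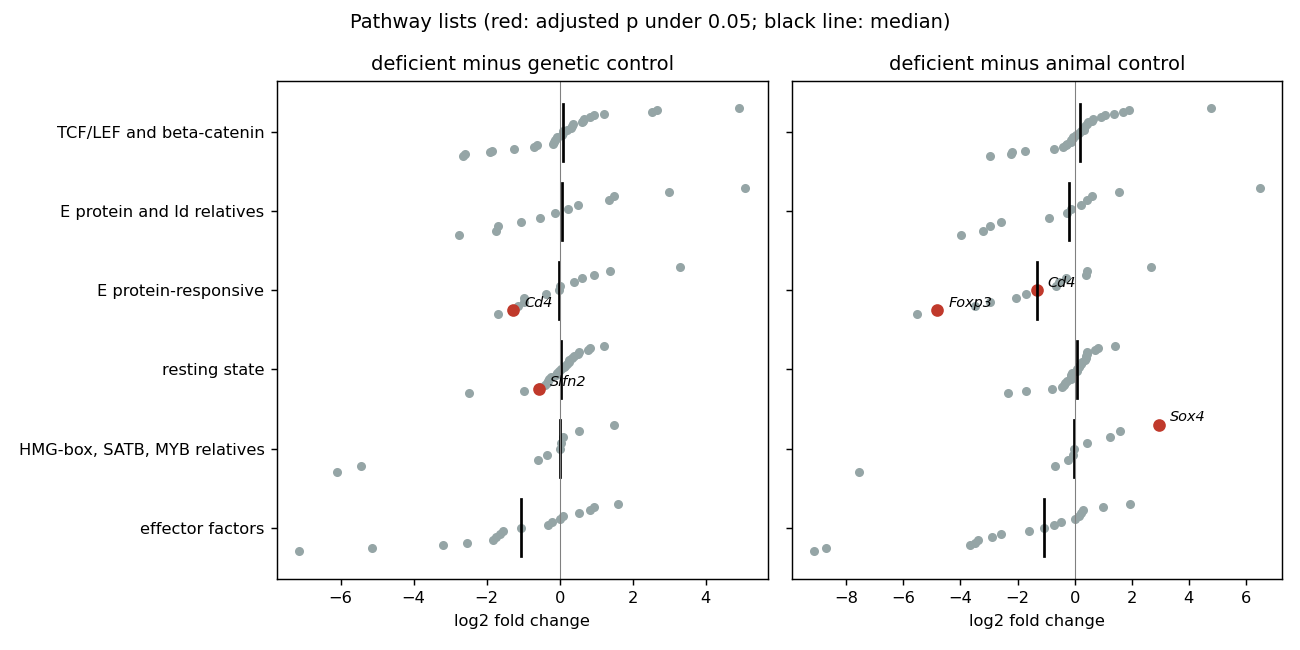
Log2 fold change (horizontal axis) of each measured gene of the 6 lists, for deficient cells against genetic controls (left) and against animal controls (right); black lines are list medians and red points have an adjusted p under 0.05. Cd4, Foxp3, Slfn2 and Sox4 are the called genes, and the medians of the effector factors lie at -1.06 and -1.07. The lowest point of each panel is Tbx21, at -7.13 and -9.13. Its size depends on the lowest value of the table, 0.00457 CPM, which Tbx21 had in deficient libraries 142114 and 232614.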

How the data were processed

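The authors deposited a single matrix, whose values fit log2 CPM. Each library adds up to between 999252 and 999256 CPM, and every column spans exactly -7.77 to 13.42, the pattern of quantile normalization. The submitters' processing notes name bcl2fastq 1.8.4, STAR 2.4.0h, mm10 and limma without a version; how reads were counted and filtered is not given there. Of 13702 rows, 4 exact duplicates were dropped. Depth cannot be recovered, so no counting interval is given. From 8% to 11.4% of a library's genes share its minimum.

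Values were used without pseudocount or filter in limma 3.58.1 (R 4.3.3, trend fit, group means over all 9 libraries), tested on simulated data first. Exact permutation tests used scipy 1.17.1. The members and lists were chosen with earlier results of these data known. Named genes were the 9 members, list genes past the threshold (up to 5 per list), markers and the deleted genes; Tcf4, Batf, Maf and Tbx21 were named after their values were seen. One gene that the rule for members names is not reported here. Coordinates are GENCODE M21 (GRCm38, which mm10 names). Libraries are separate mice, 3 per group. Deficient cells and animal controls came from the same 3 mice; deviations from group means of libraries of a mouse correlated at 0.0483, 0.0202 and 0.017 over 7550 genes. Mouse was left out of the reported fit and tried as a term. Other alternatives were no trend, only the 6 libraries compared, log2(CPM + 1), genes of at least 1 CPM, median centring, leaving out each library, and, chosen after seeing the data, leaving out 2 libraries with erythroid signal.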

Additional observations from a re-analysis of the deposited data

How the results depend on the processing

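Across 441 refits of the 9 transcripts' differences, 418 kept direction and side of the threshold, 1 newly passed (Satb1 against animal controls, 1.27 without deficient library 432614) and 22 changed sign, none of them past the threshold; the cause was not tested. Mouse as a fixed term (the replicate block among 6 libraries) called 0 genes against animal controls and 0 list genes; as a random term it changed none of the calls of the 9 transcripts, and called 1 effector factor (Tbx21) against animal controls, where the reported fit called 0. Without the variance trend, 0 list genes were called against genetic and 1 against animal controls, and 32 genes between controls. With only the 6 libraries compared, 22, 52 and 3 genes were called (against genetic controls, against animal controls, between controls), and 0 list genes against genetic controls. Without both libraries with erythroid signal, a setting chosen after seeing the data, 29 and 60 genes were called against genetic and animal controls and 1 list gene against genetic controls; Foxp3 was 0.01 against genetic controls, Tcf3 -0.03 against animal controls, and Lef1 -0.04, Tcf12 0.24 and Cd4 0.11 between controls.

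Leaving out 1 library in turn, 48 to 93 genes and 1 to 3 list genes were called against genetic controls, 58 to 115 genes and 0 to 1 of the 9 members against animal controls, and 4 to 10 genes between controls. The ranges that cross 0 were, against genetic controls, Tox -0.08 to 0.23, Tcf12 -0.13 to 0.33, Id3 -0.27 to 0.10, Foxp3 -0.23 to 0.10 and the Tcf12 to Tcf3 ratio -0.64 to 0.07. Against animal controls they were Tcf3 -0.17 to 0.32, Tcf12 -0.23 to 0.38, Id3 -0.33 to 0.01 and the Tcf12 to Tcf3 ratio -0.39 to 0.43. Between controls they were Lef1 -0.04 to 0.13, Tcf12 -0.37 to 0.24, Id3 -0.25 to 0.12, Cd4 -0.19 to 0.11, the Lef1 to Tcf7 ratio -0.29 to 0.02, the Tcf12 to Tcf3 ratio -0.14 to 0.62 and the Id3 to Id2 ratio -0.14 to 0.37.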

Other observations

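Among 7286 genes compared over the 9 libraries, those whose log2 CPM followed a transcript most closely, chosen after their values were seen, were Limd2, Spata13 and Ankrd13a for Tcf7 (Pearson r = 0.942, 0.899 and 0.896), Klf7, Cdc40 and Trim32 for Satb1 (r = 0.974, 0.934 and 0.912), and Acbd3, Rfxank and Dicer1 for Id2 (r = 0.951, 0.938 and 0.933). The points are 9 libraries in 3 groups and share their normalization, so the values are descriptions with no test.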
